A study of Mus musculus with 11 samples.

Results

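The genes Nbr1, Tmem106a, Ide, Btaf1, Cyp20a1, Ncapd2 and Mlph were taken for their allelic reads in hippocampus: in each, the share of reads from the BL6 allele appeared to fall into separate levels among mice. They are 7 of the 55401 genes in the deposited tables. Members were chosen by their BL6 shares in these mice, so shares and the reads of each allele are given below as a description, with no test. The study asked how stable allele-specific expression is in the aged brain, and sequenced polyA RNA of dissected hippocampus from 11 female F1 mice of BL6 and CAST parents, 1 library per mouse. The 5 old mice were 101 to 104 weeks of age: old mice 1, 2 and 5 had a BL6 mother and a CAST father, and old mice 3 and 4 had a CAST mother and a BL6 father. The 6 young mice were 8 or 9 weeks of age: young mice 3, 4 and 6 had a BL6 mother, and young mice 1, 2 and 5 had a CAST mother. No mouse carried a transgene or received a treatment according to the labels, and dissected tissue holds many cell types, so fewer cells of a type and less RNA per cell cannot be told apart.

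In an F1 hybrid each cell holds a chromosome set from each parental strain, and a base that differs between the strains tells which allele a read came from. A fixed sequence difference between the strains that acts on its own chromosome shifts the share in the same direction in every mouse where its effect is the same, and an imprinted gene gives a share that turns with the strain of the mother. Shares can also differ between mice of a cross, for example where a parental stock is not uniform or the mix of cells differs. The 7 genes have unlike roles. Nbr1 is an autophagy receptor that brings ubiquitin-marked cargo to the autophagosome, and Tmem106a is a membrane protein related to the lysosomal protein Tmem106b. Ide is the insulin-degrading enzyme, a metallopeptidase that also cleaves amyloid beta, and Btaf1 is an ATPase that takes the TATA-binding protein off DNA. Cyp20a1 is a cytochrome P450 with no settled substrate, Ncapd2 a subunit of the condensin complex that compacts chromosomes, and Mlph (melanophilin) the adaptor that ties Rab27a on melanosomes to myosin Va.

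The members lay on 4 chromosomes. Nbr1 (chr11:101552149-101581951, plus strand) and Tmem106a (chr11:101582242-101591788, plus strand) are neighbours 0.291 kb apart. Btaf1 (chr19:36926079-37012752, plus strand) and Ide (chr19:37268743-37337852, minus strand) are 256 kb apart. Cyp20a1 (chr1:60343323-60388060, plus strand) and Mlph (chr1:90915085-90951142, plus strand) share a chromosome, and Ncapd2 lies at chr6:125168007-125191701 on the minus strand (GENCODE M21 gene bodies on GRCm38). The pairs on chromosomes 11 and 19 divided the mice alike, so RefSeq start regions of those 4 genes are shown, the first along the strand where the table has 2 (Nbr1 and Tmem106a) (GRCm38.p6, 250 bases before to 50 after the start, 5′ to 3′ on the gene's strand, with each CG in capitals). Nbr1 is chr11:101551857-101552156, Tmem106a chr11:101581992-101582291, Btaf1 chr19:36925829-36926128 and Ide chr19:37334495-37334794.
Nbr1: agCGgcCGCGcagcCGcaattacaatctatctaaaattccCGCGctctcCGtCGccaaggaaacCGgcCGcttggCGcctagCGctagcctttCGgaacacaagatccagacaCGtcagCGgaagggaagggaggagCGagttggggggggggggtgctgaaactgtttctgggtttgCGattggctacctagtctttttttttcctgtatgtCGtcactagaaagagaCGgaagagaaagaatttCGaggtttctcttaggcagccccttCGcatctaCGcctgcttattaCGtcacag
Tmem106a: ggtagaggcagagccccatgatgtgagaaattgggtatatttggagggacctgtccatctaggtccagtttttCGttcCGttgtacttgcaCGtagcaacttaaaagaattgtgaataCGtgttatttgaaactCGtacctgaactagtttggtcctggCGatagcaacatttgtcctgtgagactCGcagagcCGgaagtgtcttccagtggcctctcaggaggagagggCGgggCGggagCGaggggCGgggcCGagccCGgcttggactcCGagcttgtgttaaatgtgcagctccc
Btaf1: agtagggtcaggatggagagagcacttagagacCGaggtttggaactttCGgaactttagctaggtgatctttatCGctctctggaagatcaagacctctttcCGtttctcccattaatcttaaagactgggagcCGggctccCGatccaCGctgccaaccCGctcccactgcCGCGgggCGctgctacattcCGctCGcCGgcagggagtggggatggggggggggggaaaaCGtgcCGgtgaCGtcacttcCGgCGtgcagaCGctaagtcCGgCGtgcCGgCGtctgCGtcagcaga
Ide: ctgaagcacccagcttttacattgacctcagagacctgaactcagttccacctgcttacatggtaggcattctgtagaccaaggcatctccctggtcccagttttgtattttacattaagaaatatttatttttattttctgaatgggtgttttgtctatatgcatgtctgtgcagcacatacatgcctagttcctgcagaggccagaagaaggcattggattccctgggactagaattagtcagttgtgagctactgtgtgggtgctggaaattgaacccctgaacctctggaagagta
The windows held 23 CG in Nbr1, 15 in Tmem106a and 25 in Btaf1, against a median of 7 over 32851 RefSeq promoters of the same length. The Ide window held 0 CG, and its RefSeq start lies inside the longer body that GENCODE gives the gene. Searched on both strands, CCAAT occurred in the Nbr1, Tmem106a and Ide windows (37.4% of all promoters hold it), GGGCGG occurred 3 times in Tmem106a (35.7%), and TATAAA occurred in none of the 4 (13.6%). The second Nbr1 window held 19 CG, 2 CCAAT and 1 GGGCGG, and the second Tmem106a window 19 CG, 0 CCAAT and 3 GGGCGG, so these matches depend on the start used.

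Libraries held 111094513 to 214763396 counts, of which 35.1% to 36.4% were assigned to an allele, and BL6 made up 50.4% to 51.1% of the allelic counts. None of the 55 pairs of libraries agreed within counting noise (chi-square of 45.6 to 354 per gene), so no library was counted as a repeat of another. Levels are given as TMM-scaled CPM, reads relative to the library's total counts corrected for composition. Markers of CA1 neurons summed to 394 to 826 CPM in every library. However, old mouse 3, young mouse 2 and young mouse 6 also had 993 to 3048 CPM of striatal markers. Young mouse 1 had 752 CPM of thalamus markers, against 111 to 250 CPM in the other mice.

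Each share was cut at the largest gap between neighbouring values of the 11 mice. A gene was called stepped when every mouse had at least 20 allelic reads, the gap was at least 10 percentage points, each side held at least 2 mice, and the 95% Wilson intervals at the gap did not overlap. Of 19578 autosomal genes with enough reads, 141 (0.72%) were called, and 113 of the 141 (80.1%) divided the mice exactly by the strain of the mother. By this definition 3 of the 7 members were called: Nbr1, Ide and Cyp20a1. Tmem106a had a gap of 16.9 points but few reads, and Btaf1, Ncapd2 and Mlph had gaps of 6.86, 7.12 and 8.18 points. The gap just inside the limit was 13.9 points in Cyp20a1, and just outside it 8.18 points in Mlph. The members' largest gaps made 5 different divisions of the mice, and none of them was the division by cross alone. The divisions of all 7 members stayed as described when any 1 of the 11 mice was left out.

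**Figure D1:**
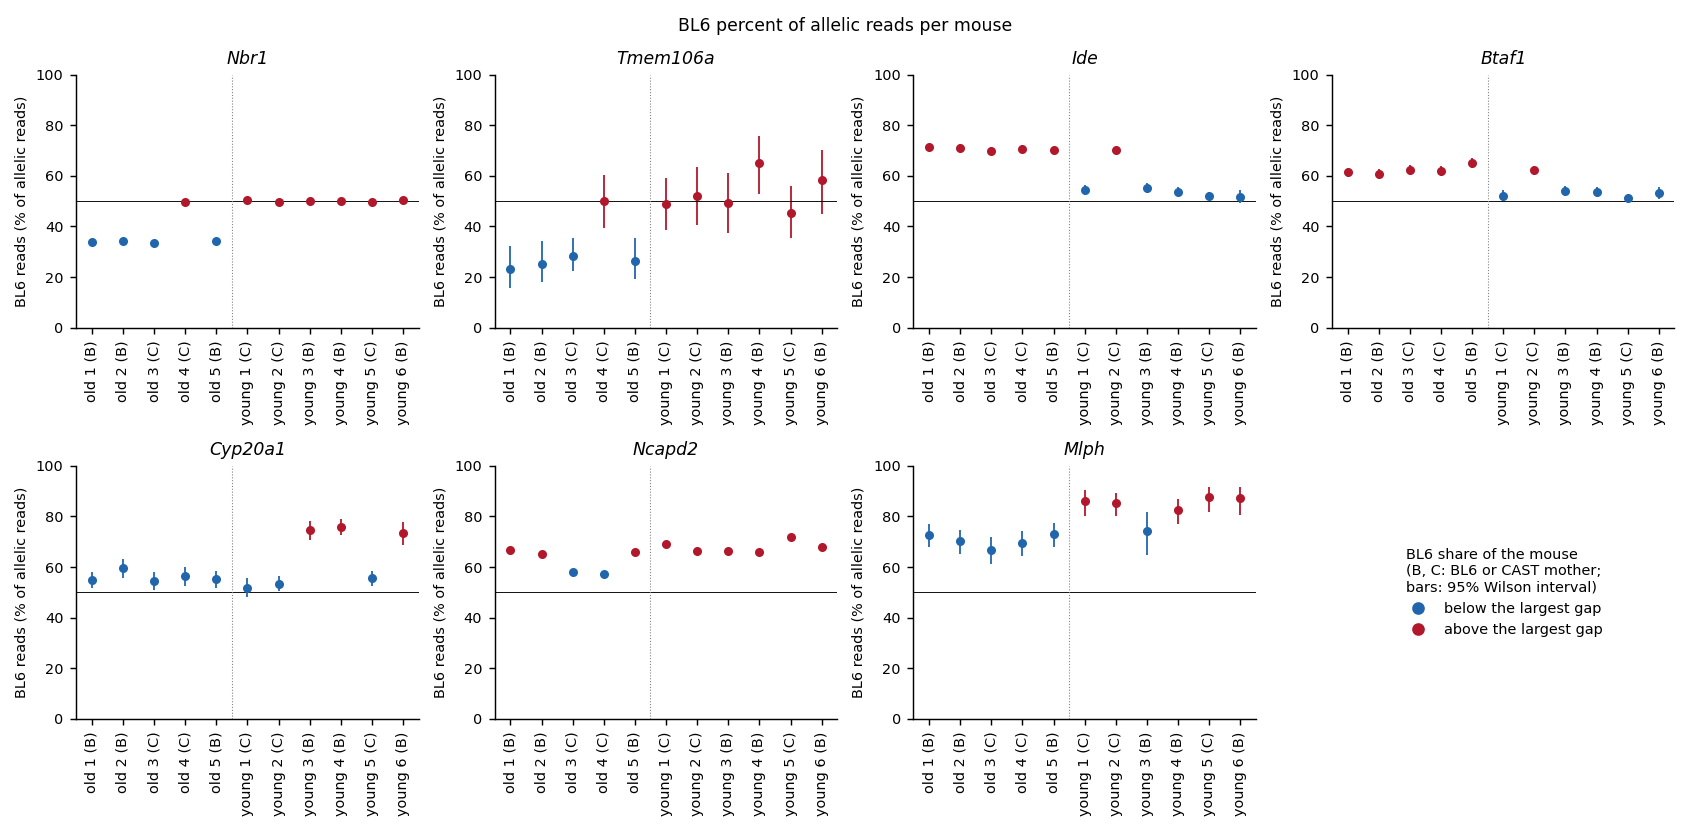
BL6 share of allelic reads (percent, vertical axis) of the 7 genes in each of the 11 mice (horizontal axis; B or C is the strain of the mother), with 95% Wilson intervals that cover counting error only. Colour marks the side of the largest gap: the 4 low mice of Nbr1 sit between 33.5% and 34.3%, and its other 7 between 49.6% and 50.5%.

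Nbr1 had a raised CAST allele in 4 of the 5 old mice. The BL6 share was 33.8% in old mouse 1, 34.3% in old mouse 2, 33.5% in old mouse 3 and 34.0% in old mouse 5, while old mouse 4 stood at 49.6% and the 6 young mice between 49.6% and 50.5%. These shares rest on 9522 to 24462 allelic reads per mouse, and every interval on the low side was well clear of those on the high side, across a gap of 15.3 points. The low mice had 1.92 to 1.99 CAST reads for each BL6 read, against 0.981 to 1.02 in the other 7. Both crosses were on the low side: the CAST allele came from the father in old mice 1, 2 and 5 and from the mother in old mouse 3.

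The CAST allele of Nbr1 was at 104, 79.2, 73.0 and 97.3 CPM in old mice 1, 2, 3 and 5, and between 40.3 and 57.1 CPM in the other 7 mice. The BL6 allele overlapped, at 36.8 to 52.9 CPM in the low mice and 41.1 to 56.3 CPM in the rest. The total of Nbr1 was 309.9, 251, 227 and 296 CPM in the 4 low mice, 171 CPM in old mouse 4, and 178 to 222 CPM in the young mice. The low-share mice thus had the highest totals, with no overlap on this scale. With RLE scaling the ranges met (216 to 314 against 173 to 226 CPM).

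Tmem106a, just downstream of Nbr1, divided the mice in the same way at a far lower level. Its BL6 share was 23.0%, 25.2%, 28.5% and 26.4% in old mice 1, 2, 3 and 5, 50% in old mouse 4, and 45.3% to 65.1% in the young mice. Only 55 to 179 allelic reads per mouse lay behind these values, and the intervals on either side of the gap touched (22.4% to 35.5% in old mouse 3, 35.3% to 55.8% in young mouse 5). The CAST allele was at 0.492 to 0.829 CPM in the 4 low mice and 0.121 to 0.326 CPM elsewhere, and the BL6 allele overlapped (0.147 to 0.330 against 0.201 to 0.311 CPM). The total ran from 0.857 to 1.54 CPM in the low mice and from 0.500 to 0.803 CPM in the other 7. The lowest total of the first range and the highest of the second, 0.803 CPM in young mouse 1, are close. On counts per library size alone the ranges overlapped (0.787 to 1.67 against 0.478 to 0.864 CPM). The shares of Nbr1 and Tmem106a had a Pearson r of 0.93 over the 11 mice, which come from the same libraries.

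Genes around the pair were searched for the same division of mice. Within 500 kb of Nbr1, 41 genes had enough allelic reads, and none was called stepped. Brca1, the DNA repair gene that starts 0.194 kb before Nbr1 on the other strand, had its 4 lowest shares in the same 4 old mice (20.6% to 33.3%, against 36.8% to 54.1% in the rest), with r of 0.81. Its largest gap, 6.64 points, lay between other mice, and old mouse 4 had only 67 allelic reads. Rdm1, 45.2 kb downstream, ranged from 36.8% to 46.6% with r of 0.12, and Rnd2, 80.3 kb upstream, from 35.7% to 40.6% with r of 0.18. The low shares of the 4 mice were thus seen in Nbr1 and Tmem106a, and not in Rdm1 or Rnd2. For Brca1 this stayed unclear, since the intervals of old mouse 2 (24.6% to 43.4%) and young mouse 1 (28.2% to 46.3%) overlapped. Striatal marker genes, whose levels differ widely between these libraries, summed to 187 to 993 CPM in the 4 low mice and 164 to 3048 CPM in the others. Choroid plexus markers summed to 22.0 to 966 CPM and 19.5 to 886 CPM, so both overlapped between the sides. Microglial markers were at 157 to 181 CPM in the 4 low mice and 94.3 to 170 CPM in the others, where old mouse 4 alone reached into the low range, and their part in the shares of Nbr1 and Tmem106a was not tested.

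**Figure D2:**
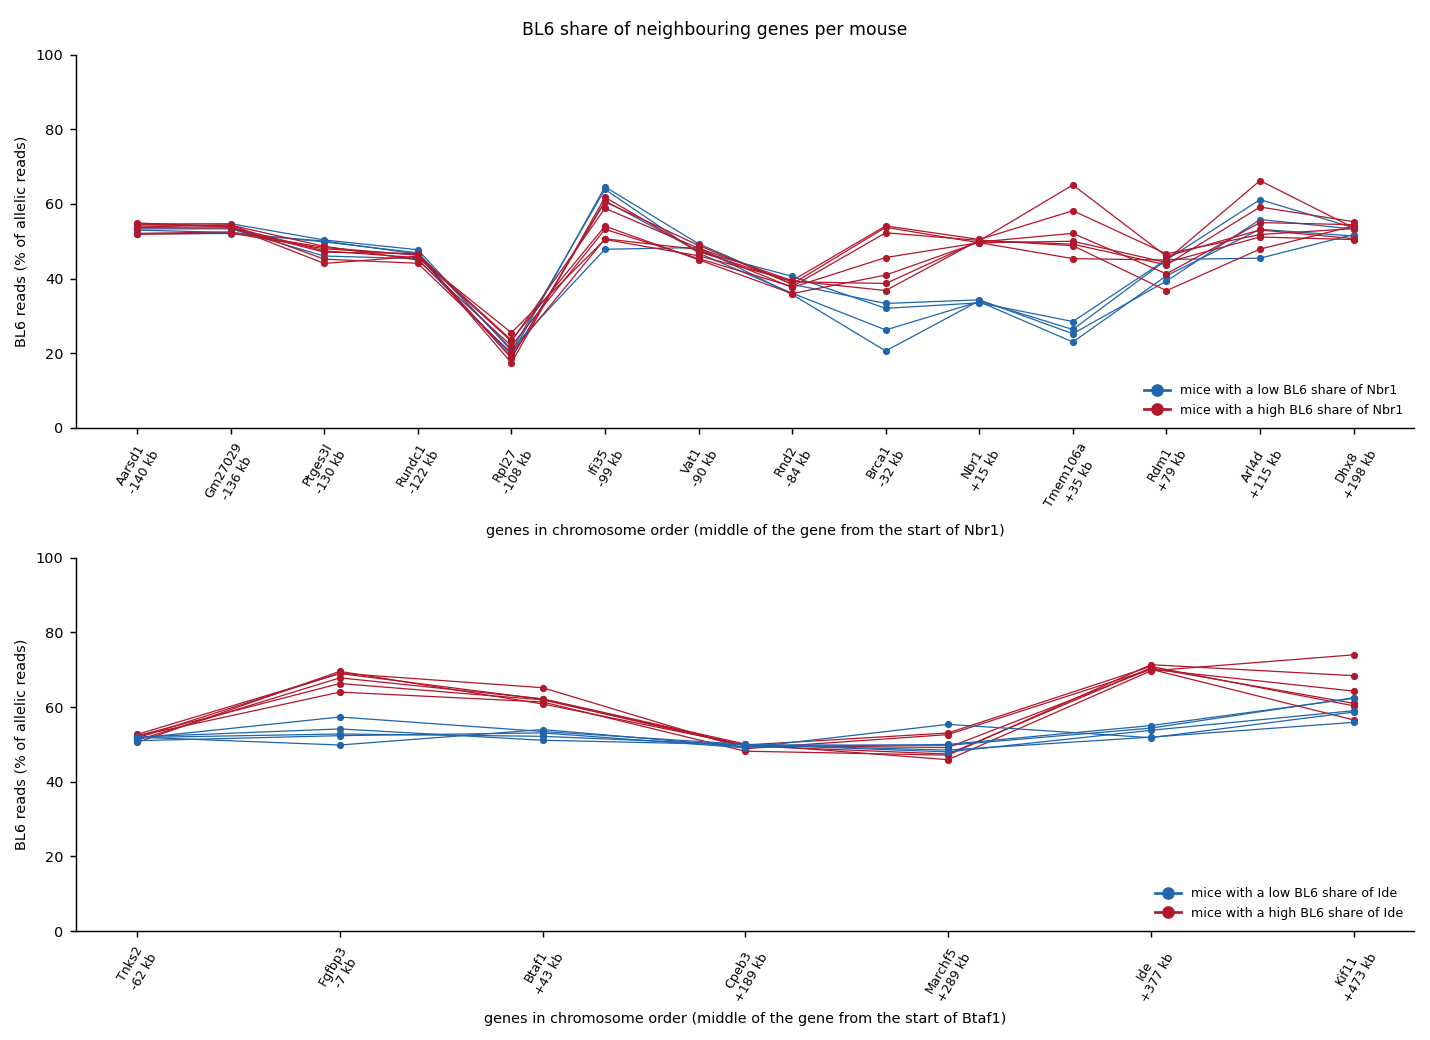
BL6 share (percent, vertical axis) of genes in chromosome order around Nbr1 (top) and around Btaf1 and Ide (bottom), with the distance of each gene's middle from the start of Nbr1 or Btaf1 in kb. Each line is 1 mouse, coloured by its side of the largest gap in Nbr1 or Ide. Around Nbr1 the colours part at Nbr1 and Tmem106a, and only narrowly at Brca1 (33.3% against 36.8%, with overlapping intervals). Around Ide they part at Fgfbp3, Btaf1 and Ide but not at Cpeb3 or Marchf5 between them.

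Ide had a raised BL6 allele in all 5 old mice and in young mouse 2. Its BL6 share was 71.4%, 70.9%, 69.7%, 70.5% and 70.1% in old mice 1 to 5 and 70.1% in young mouse 2. The other 5 young mice stood at 54.4% (young mouse 1), 55.0% (young mouse 3), 53.8% (young mouse 4), 52.0% (young mouse 5) and 51.8% (young mouse 6). The gap was 14.7 points over 1494 to 4473 allelic reads per mouse. The high mice had 2.30 to 2.49 BL6 reads for each CAST read, and the low mice 1.08 to 1.22. Each side held both crosses.

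The BL6 allele of Ide was at 14.4 to 20.4 CPM in the 6 high mice and 6.61 to 9.72 CPM in the 5 low ones, while the CAST allele ran from 6.28 to 8.19 CPM and from 6.15 to 8.51 CPM. The total was 63.0, 48.4, 45.3, 52.1 and 54.3 CPM in old mice 1 to 5 and 56.2 CPM in young mouse 2. In the other young mice it was 40.01, 38.9, 35.3, 40.4 and 28.2 CPM (young mice 1, 3, 4, 5 and 6). Young mouse 2 lay inside the range of the old mice in share and in total, and apart from the other young mice in both. Without young mouse 2 the division was that by age, with the gap still 14.7 points. The ranges of the total also stayed apart on counts per library size and with RLE scaling. Striatal markers summed to 177 to 3048 CPM in the high mice, highest in young mouse 2, and to 164 to 1962 CPM in the low ones, highest in young mouse 6. Microglial markers were at 141 to 181 CPM in the high mice and 94.3 to 155 CPM in the low ones. The part of either marker set in the result was not tested.

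Btaf1 divided the mice exactly as Ide did, with a smaller gap. Its BL6 share was 61.4%, 60.8%, 62.2%, 61.9% and 65.2% in old mice 1 to 5 and 62.1% in young mouse 2, against 51.1% to 54.0% in the other 5 young mice, a gap of 6.86 points over 1618 to 3230 allelic reads. There were 1.55 to 1.87 BL6 reads for each CAST read on the high side and 1.05 to 1.17 on the low side. Both alleles overlapped between the sides. The BL6 allele was at 8.57 to 11.5 CPM in the high mice and 7.34 to 8.83 CPM in the low ones. Its overlap came from old mouse 5 (8.57 CPM), since the other high mice started at 10.1 CPM. The CAST allele was at 4.58 (old mouse 5) to 6.99 CPM in the high mice and 6.48 to 8.10 CPM in the low ones. Totals overlapped too, at 68.2 to 101 against 61.3 to 76.2 CPM. Allelic reads made up 16.5% to 23.7% of the Btaf1 counts, against 43.7% to 45.7% for Ide, so its shares describe a smaller part of its reads. The shares of Btaf1 and Ide had r of 0.96 over the 11 mice.

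Fgfbp3, a carrier protein of fibroblast growth factors and not a member, lies 6.46 kb before Btaf1 (chr19:36917550-36919615, minus strand) and divided the mice as Ide and Btaf1 did. It was named by the rule on neighbours. Its gap was 6.68 points over 161 to 506 allelic reads, and it was not called stepped. The intervals of old mouse 1 (59.4% to 68.4%) and young mouse 4 (52.6% to 61.9%) overlapped. BL6 reads made up 64.0% to 69.6% in the 5 old mice and young mouse 2, and 49.8% to 57.3% in the rest. Its BL6 allele was at 1.58 to 2.35 CPM in the high mice and 0.644 to 1.41 CPM in the low ones. The total of Fgfbp3 overlapped (5.51 to 8.06 against 3.13 to 6.01 CPM). The overlap came from young mouse 2 (5.51 CPM), since the old mice started at 6.26 CPM. The genes between Btaf1 and Ide did not divide the mice in this way. Cpeb3, an RNA-binding regulator of translation, stayed between 48.2% and 50.1% (r of -0.25 with Ide), and Marchf5, a mitochondrial ubiquitin ligase, between 45.9% and 55.4% (r of -0.22). Outside the stretch, Tnks2, 32.6 kb before Btaf1, ran from 50.5% to 52.7%, and Kif11, 38.6 kb after Ide, from 55.9% to 74.0% with r of 0.46. As background, the number of copies of a segment with Ide and Fgfbp3 is known to vary among C57BL/6J stocks. DNA copy number was not measured here, and its part in the shares was not tested.

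**Figure D3:**
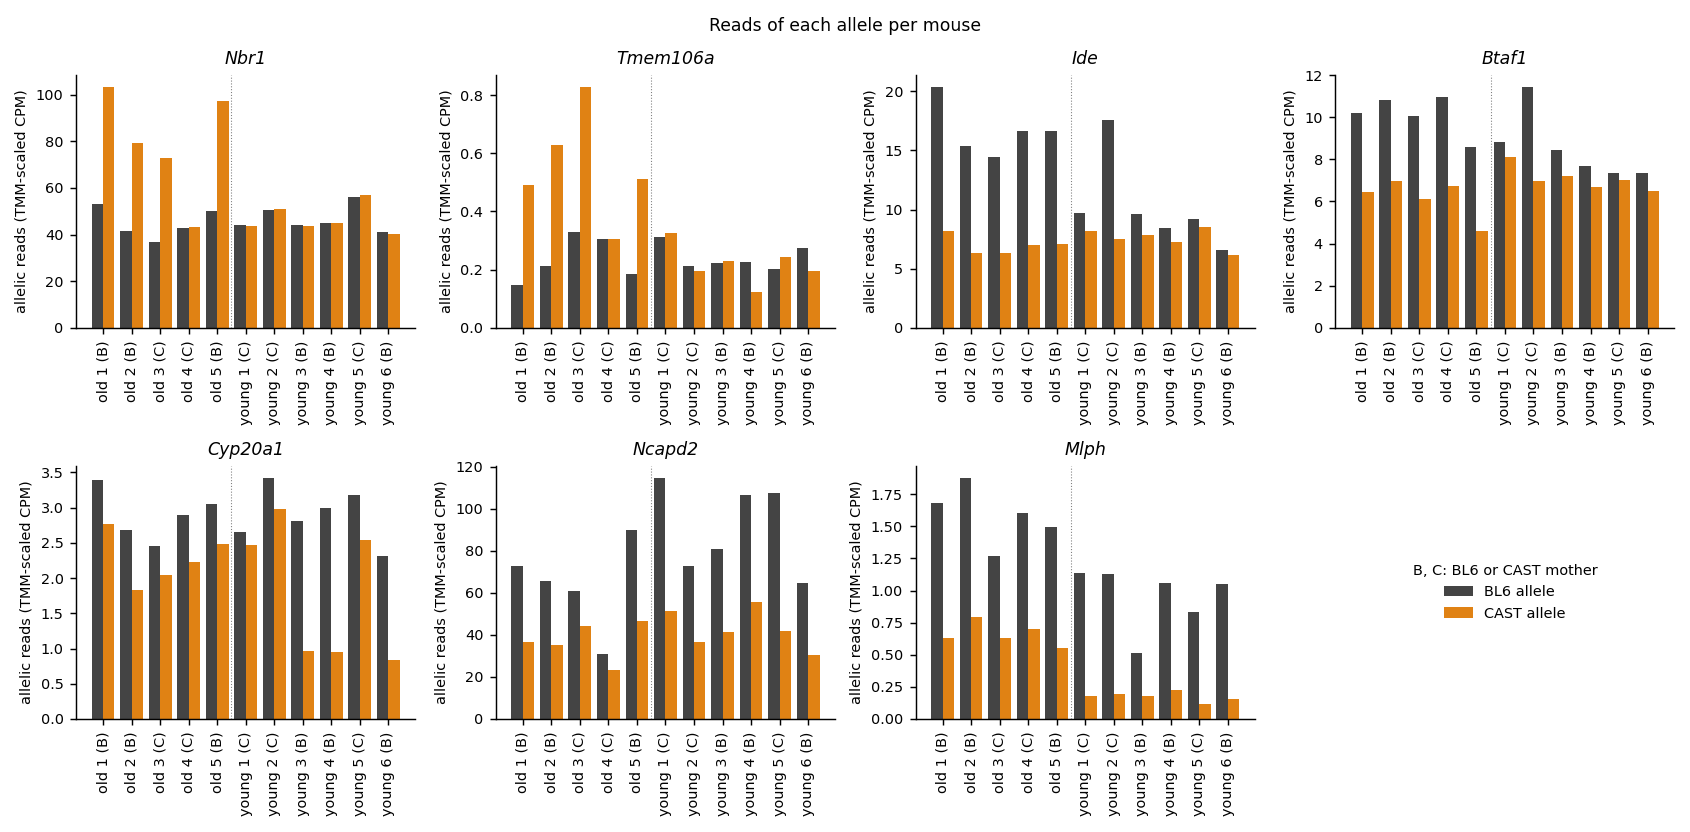
Reads of the BL6 allele (dark) and the CAST allele (orange) of the 7 genes in each mouse, as TMM-scaled CPM on an axis from 0 that differs between genes (B or C is the strain of the mother). The CAST bars of Nbr1 stand out in old mice 1, 2, 3 and 5 (73.0 to 104 CPM), the BL6 bars of Ide in the 5 old mice and young mouse 2, and the low CAST bars of Cyp20a1 in young mice 3, 4 and 6.

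Cyp20a1 had a lowered CAST allele in the 3 young mice with a BL6 mother. BL6 reads made up 74.6% in young mouse 3, 76.0% in young mouse 4 and 73.4% in young mouse 6. The 3 young mice with a CAST mother were at 51.9%, 53.5% and 55.6%, and the old mice at 55.1%, 59.5%, 54.5%, 56.4% and 55.1% (old mice 1 to 5). The gap was 13.9 points, between old mouse 2 and young mouse 6, over 369 to 1120 allelic reads. The share therefore parted the crosses among the young mice but not among the old ones, where the 3 mice with a BL6 mother spanned 55.1% to 59.5% and the 2 with a CAST mother 54.5% to 56.4%. Whether this difference between ages goes beyond chance was not tested, since the shares chose the gene.

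The CAST allele of Cyp20a1 was at 0.961, 0.945 and 0.837 CPM in young mice 3, 4 and 6, and at 1.82 to 2.98 CPM in the other 8. The BL6 allele overlapped, at 2.32 to 2.99 against 2.45 to 3.42 CPM. The total was 5.03, 5.41 and 4.13 CPM in the 3 mice and 6.12 to 8.29 CPM in the others, and the ranges stayed apart on counts per library size and with RLE scaling. Within 500 kb, 11 other genes had enough reads and none was called stepped. The nearest on each side, Nbeal1 (4.99 kb before; 48.1% to 52.8%) and Abi2 (21.6 kb after; 49.2% to 52.2%), kept near-equal shares in all 11 mice.

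Ncapd2 had its 2 lowest BL6 shares in old mice 3 and 4, but the count of a small RNA gene inside it equalled most of its own. The share was 57.9% in old mouse 3 and 57.3% in old mouse 4, the 2 old mice with a CAST mother, and 65.0% to 71.9% in the other 9 mice, including the 3 young mice with a CAST mother. The BL6 allele was at 61 and 30.9 CPM in old mice 3 and 4 and at 64.6 to 115 CPM elsewhere, and the CAST allele and the total overlapped. Scarna10, a small Cajal body RNA at chr6:125186359-125186683 on the same strand, shares 237 of its 325 exonic bases with exons of Ncapd2. Its count equalled 74.7% to 91.2% of the Ncapd2 count. Gm28967, at the same place, had counts identical to those of Scarna10 in all 11 libraries, so reads there were counted for more than 1 gene. Shares of Scarna10 (56.7% to 73.7%) and Ncapd2 had r of 0.997.

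With the Scarna10 counts taken away, a step chosen after seeing the data, Ncapd2 no longer showed the division. Its BL6 share was then 55.6% in old mouse 3 and 58.7% in old mouse 4, against 58.0% to 61.9% in the other 9 mice, and the largest gap was 2.37 points with at least 1998 allelic reads in each mouse. The remaining total was 17.2 to 23.3 CPM. The separate level in old mice 3 and 4 was thus seen with the Scarna10 counts and not in the remainder, where old mouse 3 was still lowest. Counts cannot assign reads over the shared bases to either gene alone. Any statement on Ncapd2 messenger RNA rests on the remainder. Reads of the host gene over the shared bases were taken away with the Scarna10 counts. Scarna10 reads that lay only outside the 237 shared bases may not have been in the Ncapd2 count, so too much may have been taken away. Of 44 genes with enough reads within 500 kb none was called stepped, and the highest r outside the overlap was 0.81, at Phb2 (38.7% to 46.8%).

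**Figure D4:**
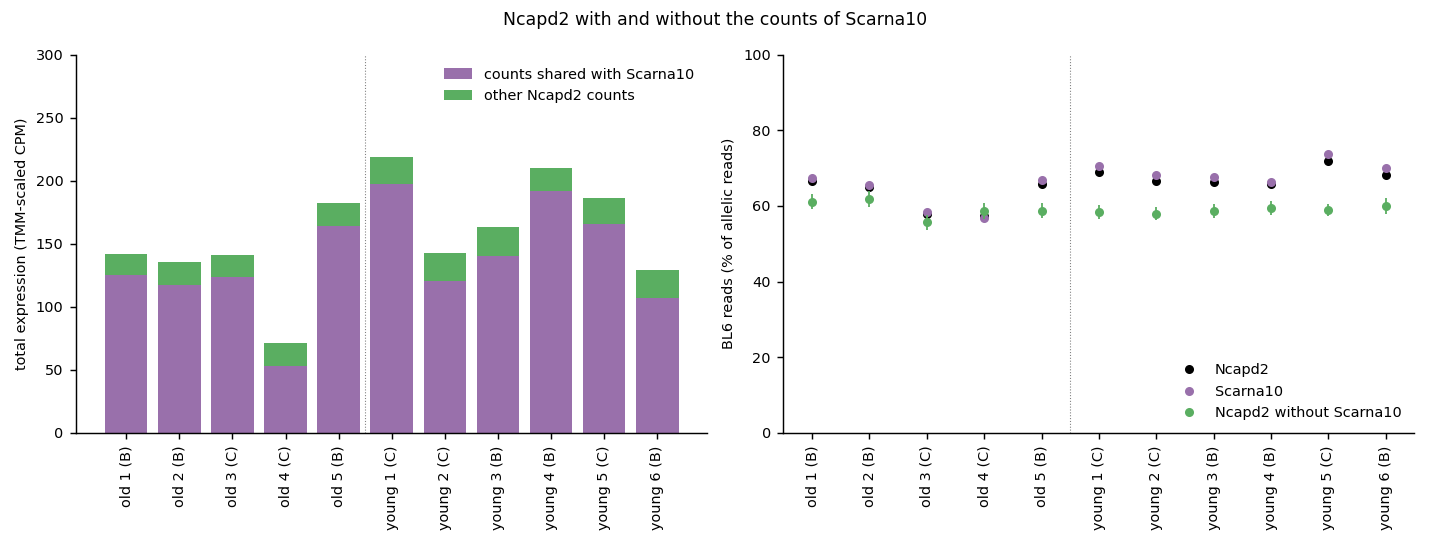
Left, total of Ncapd2 in each mouse as TMM-scaled CPM, split into the whole count of Scarna10 (purple) and the remaining Ncapd2 count (green). Right, BL6 share (percent) of Ncapd2, of Scarna10 and of Ncapd2 without Scarna10 counts, with 95% Wilson intervals on the last: old mice 3 and 4 are low in the first and second, and their values in the third are 55.6% and 58.7%.

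Mlph had its low BL6 shares in all 5 old mice and in young mouse 3. The shares were 72.7%, 70.3%, 66.9%, 69.6% and 72.9% in old mice 1 to 5, 74.2% in young mouse 3, and 82.4% to 87.5% in the other 5 young mice, with a gap of 8.18 points over 97 to 362 allelic reads. Young mouse 3 had the fewest reads, and its interval of 64.7% to 81.9% overlapped that of young mouse 4 (77.0% to 86.8%), above the gap. The CAST allele was at 0.555 to 0.795 CPM in the old mice and 0.119 to 0.225 CPM in the young ones, with young mouse 3 (0.179 CPM) inside the young range. Young mouse 3 stood apart through its BL6 allele, at 0.516 CPM against 0.831 to 1.14 CPM in the other young mice and 1.27 to 1.88 CPM in the old. Neither allele of Mlph overlapped between the ages, a description for which the share over all genes was not computed. Of 12 genes with enough reads within 500 kb none was called stepped, and the highest r was 0.69, at Ube2f (48.9% to 53.9%). Melanocyte markers were low in all mice: the 6 genes summed to 1.41 to 1.98 CPM in the old group and 1.17 to 1.53 CPM in the young group, and Tyr, the enzyme that starts melanin synthesis, was at 0 in old mice 2 and 4. Microglial markers summed to 157 to 181 CPM in the old group and 94.3 to 155 CPM in the young group, without overlap. Singly, Cx3cr1 (from 29.5 CPM in old, up to 33.6 CPM in young mice) and P2ry12 (from 12.1, up to 14.6 CPM) overlapped. The sums of markers of dividing cells were also apart, at 2.57 to 6.13 CPM in the old and 7.47 to 15.9 CPM in the young group. Singly, Top2a and Ccnb1 were apart. Mki67 (up to 4.66 CPM in old, from 4.40 CPM in young mice) and Cdk1 (up to 0.242, from 0.171 CPM) overlapped. The part of either marker set in the Mlph levels was not tested.

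Total expression was tested by age and by cross with edgeR's quasi-likelihood test over 30568 genes, and the members' rows were read from that fit. The rule used shares and not totals, but both come from the same reads and totals were known when the genes were taken, so these rows are not independent of the choice. The age term gave 104 genes (0.34%) at a threshold of 0.05 on the adjusted p: old mice had more RNA of 70 (0.229%) and less of 34 (0.111%). Of the 7 members, 0 were among them. The count over all genes fell to 14 without old mouse 4, rose to 244 without young mouse 5, and was 530 with DESeq2 (283 higher and 247 lower in old mice). Before adjustment, 4 of 7 had p under 0.05 (Nbr1, Tmem106a, Ide and Mlph), against 12.5% of all genes tested, and DESeq2 called 2 of 7, Tmem106a and Mlph, against 1.74%. Groups did not overlap in 1 of the 7, Mlph, against 1.85% of all genes.

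Mlph was at 2.93 ± 0.401 CPM in old mice (SD, n = 5) and 1.47 ± 0.296 CPM in young mice (SD, n = 6). Old mice were higher by 0.99 on the log2 scale (SE 0.19, edgeR adjusted p = 0.0521), just short of the threshold. It passed without the filter on low counts (0.0468), without the cross in the model (0.0267) and with DESeq2 (6.2e-05). Over all alternatives its adjusted p ran from 6.2e-05 to 0.331. Tmem106a was at 1.08 ± 0.300 and 0.587 ± 0.112 CPM (log2 difference 0.89, SE 0.22, edgeR adjusted p = 0.157), and passed only with DESeq2 (0.00662). In Mlph every old mouse lay above every young mouse, and in Tmem106a old mouse 4, at 0.779 CPM, lay below young mouse 1.

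Nbr1 averaged 251 ± 55.8 CPM in the old group and 192 ± 19.4 CPM in the young group (log2 difference 0.36, SE 0.15, edgeR adjusted p = 0.368). Ide averaged 52.6 ± 6.75 and 39.8 ± 9.22 CPM (0.43, SE 0.15, adjusted p = 0.329 by edgeR). In each, 1 mouse of an age group lay with the other group, old mouse 4 in Nbr1 and young mouse 2 in Ide, and neither difference passed the test. Btaf1 (81.8 ± 12.0 against 73.9 ± 13.6 CPM), Cyp20a1 (6.94 ± 0.952 against 6.22 ± 1.60 CPM) and Ncapd2 (134 ± 40.1 against 175 ± 36.3 CPM) had adjusted p of 0.651, 0.610 and 0.443 in the edgeR test. By cross, 63 genes (0.206%) passed, 56 higher (0.183%) and 7 lower (0.0229%) in mice with a CAST mother, and 0 of the 7 members did by edgeR or by DESeq2 (0.256% of all genes). Before adjustment 0 of the 7 had p under 0.05, against 2.05% of all genes. The crosses did not overlap in 0 of the 7, against 0.373% of all genes. All 7 had unadjusted p from 0.142 to 0.882 and an adjusted p of 0.9999, so no difference between the crosses was detectable in their totals. For Cyp20a1 the 5 mice with a CAST mother were at 7.10 ± 0.819 CPM and the 6 with a BL6 mother at 6.09 ± 1.58 CPM (SD).

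**Figure D5:**
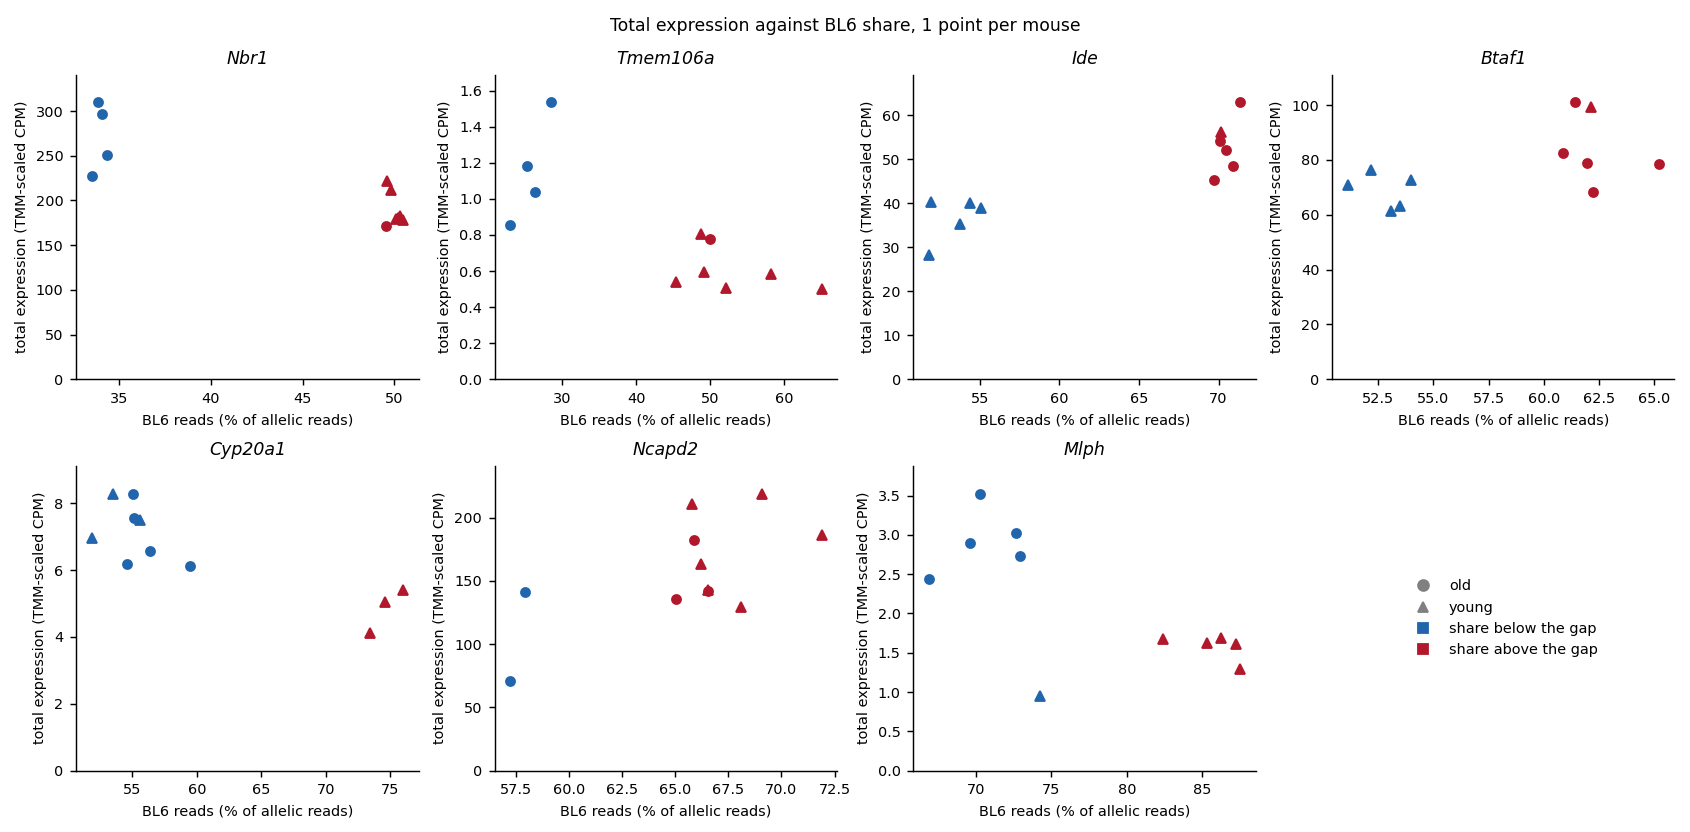
Total expression (TMM-scaled CPM, vertical axis from 0) against BL6 share (percent, horizontal axis) of the 7 genes, 1 point per mouse (circles old, triangles young). In Nbr1, Tmem106a, Ide and Cyp20a1 the mice on both sides of the gap have totals that do not overlap: in Nbr1 227 to 309.9 CPM on the low side and 171 to 222 CPM on the high side.

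Totals that did not overlap between the sides of the gap were found in 4 of the 7 members, Nbr1, Tmem106a, Ide and Cyp20a1. Among the 141 genes called stepped, totals did not overlap in 12 (8.51%), and among the 28 of these that did not divide by cross in 11 (39.3%). Nbr1, Ide and Cyp20a1 are themselves among the 11, and Tmem106a was not called stepped. The members and the 28 genes are thus neither separate sets nor defined alike. The BL6 allele was separate in 83.7% and the CAST allele in 85.8% of the 141. Shares and totals come from the same reads and the members were picked with these values known, so the count of 4 is a description. It moved with the scaling: 3 of 7 were separate on counts per library size, 3 with RLE scaling, and 1 (Ncapd2) in the authors' deposited TPM. There, 8 short non-coding genes held 28.8% to 52.8% of the TPM of a library, and the scale of all other genes moved with them.

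Per unit of length, the members spanned a wide range of levels. Median TPM over the 11 mice was 60.7 for Nbr1, 52.2 for Ncapd2 with the Scarna10 reads, 14.3 for Btaf1, 12.2 for Ide, 5.88 for Cyp20a1, 0.800 for Mlph and 0.494 for Tmem106a. The ranges over mice were 41.2 to 108 for Nbr1, 27.6 to 67.4 for Ncapd2, 9.72 to 25.4 for Btaf1, 7.44 to 20.1 for Ide, 3.72 to 9.52 for Cyp20a1, 0.388 to 1.45 for Mlph and 0.252 to 0.896 for Tmem106a. Since the TPM scale moved between libraries, neighbours in this order were compared within each library. Nbr1 was above Ncapd2 in 9 of 11 mice and Mlph above Tmem106a in 9 of 11, and the other neighbours kept the order in 11 of 11.

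The genes whose shares were most like those of each member were sought among the 19578 genes by the absolute Pearson r over the 11 mice. With so many genes and 11 points, high values are found for any gene, and they are a description. For Ide the first was Tcirg1, a subunit of the vacuolar proton pump on the same chromosome (chr19:3896050-3907133), with r of -0.97, ahead of Btaf1 (0.96) and Icam4 (0.94). Tcirg1 was itself called stepped and mirrored the division: its BL6 share was 38.1% to 47.6% in the 5 old mice and young mouse 2, and 71.4% to 85.7% in the other 5, with as few as 38 allelic reads. For Btaf1 they were Ide, Gm47341 (-0.94) and Fgfbp3 (0.93). For Nbr1 they were Tmem106a, 4933431E20Rik (0.92) and Gm15666 (0.90), and for Tmem106a Nbr1, BC037704 (0.93) and Edem1 (-0.90). For Cyp20a1 they were Gm2140 (0.92), Slc26a8 (-0.92) and Gm16758 (0.91), for Mlph Mcmbp (0.94), Lman1 (0.92) and Rdh11 (0.91), and for Ncapd2 Scarna10, Gm28967 and Gm50115 (0.92).

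Genes that work with the members were read from 7 lists of partners, 115 genes in all with enough counts. By age, 0 were higher and 1 was lower in old mice: Top2a, the DNA topoisomerase of dividing cells, in the condensin list, at 0.527 ± 0.278 CPM in the old group (n = 5) and 3.24 ± 1.41 CPM in the young (n = 6; log2 difference -2.58, edgeR adjusted p = 0.0193). By cross 0 were called. The median age difference (log2) was 0.04 in the autophagy list, 0.09 in the list of Tmem106 relatives and lysosomal partners, -0.10 in the metallopeptidase list, -0.02 in the TBP list, 0.08 in the P450 list, -0.25 in the condensin list and 0.12 in the list of Rab27 and melanosome transport, against -0.01 over all genes. The smallest adjusted p of the autophagy list was 0.425, at Gabarap, and of the melanosome list 0.294, at Rab32.

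Among the 103 partners with enough allelic reads, 1 was called stepped, a share near the 0.72% of all genes: Ace, a peptidase that makes angiotensin II, with a BL6 share of 33.5% in young mouse 6 and 36.5% in young mouse 2 and 47.1% to 66.0% in the other 9. Those 2 mice had striatal marker sums of 1962 and 3048 CPM, against 164 to 993 CPM elsewhere. Their choroid plexus marker sums were 245 and 886 CPM, inside the 19.5 to 966 CPM of the other mice. The part of either marker set in the Ace shares was not tested. None of the 24 autophagy partners of Nbr1 with enough reads was called, which is not unusual at the 0.72% of all genes. Their median largest gap was 1.105 points, against 2.54 over all genes. The medians of the other lists were 1.27 (Tmem106 relatives), 1.91 (metallopeptidases), 1.15 (TBP), 3.34 (P450), 2.64 (condensin) and 3.04 points (melanosome). Lists were not matched to all genes for allelic reads, on which the gap depends.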

How the data were processed

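PolyA RNA of hippocampus was sequenced in 11 mice. The authors deposited raw counts per gene, raw counts per gene and allele, and TPM. Per the submitters' processing notes, Trim Galore 0.6.6, HISAT2 2.1.0, SAMtools 1.10 and featureCounts of Subread 2.0.0 were used on GRCm38. How the steps were ordered, which strand setting was used and how alleles were assigned is not given in the sources used here. Columns headed i4fb were read as the BL6 allele, since their counterparts are headed cast. The deposited TPM values were used to compare levels between genes and, as an alternative scaling chosen after seeing the data, the totals on both sides of a gap. The labels give 1 library per mouse.

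BL6 shares with 95% Wilson intervals and allele CPM were computed from the deposited counts in Python 3.11.15. Intervals cover counting error only, since reads without molecular identifiers are not independent molecules. Total counts were tested in edgeR 4.0.16 (TMM, filterByExpr, age and cross as terms, all 11 mice, Benjamini-Hochberg adjustment over all genes), with DESeq2 1.42.0 as an alternative, in R 4.3.3. In simulated data the test recovered 50% of 100 genes changed by a log2 of 1 and 97% of 100 changed by 2, with 7 false calls among 30129 genes. The share rule called 67% of 200 genes raised by 20 points in 5 mice among 19578, with 0 false calls. It divided the mice rightly in 85% of the 200. Unchanged genes were simulated at equal shares with counting error only. The 0 false calls therefore give no rate for real libraries, where mice also differ beyond counting error. The simulated step was also larger than the gap of any member. Positions are from GENCODE M21, which matched 55141 of 55401 genes.

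The members and partner lists were chosen with earlier results of these data known. All 7 members are named, with the 3 genes most like each in share, neighbours within 500 kb called stepped and up to 4 others with the highest r, and partners past the test or with the smallest p. Rdm1, Rnd2, Marchf5, Tnks2 and Abi2, outside this rule, were named after their values were seen. Mice on either side of a gap were set apart by the outcome, so they were neither averaged nor tested.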

Additional observations from a re-analysis of the deposited data

Results flagged for a closer look

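In 28 groups of values (share and total of 7 genes in old and in young mice), 5 held a mouse far from the rest of its age group by Dixon's ratio. Chance flags about 1 in 20 groups of unselected values. That rate does not apply to the 4 flags of shares, since the genes were chosen by those shares, and they are given as values. Old mouse 4 had a BL6 share of 49.6% in Nbr1, where the other old mice reached 34.3% at most, and of 50% in Tmem106a, where they reached 28.5%. Young mouse 2 had a BL6 share of 70.1% in Ide, where the other young mice reached 55.0%, and of 62.1% in Btaf1, where they reached 54.0%. Young mouse 1 had a Tmem106a total of 0.803 CPM, above the 0.595 CPM of the next young mouse.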

How the results depend on the processing

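The counts by age moved most: 104 genes by edgeR, 530 with DESeq2 (283 higher and 247 lower), 15 without the 3 striatum-rich libraries (old mouse 3, young mice 2 and 6, chosen after seeing the data), and 14 (without old mouse 4) to 244 (without young mouse 5) when 1 mouse was left out. The counts by cross were 63, 30 without the 3 libraries, and 43 to 65 when 1 mouse was left out. The cause was not tested.

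By age, Nbr1, Ide, Btaf1, Cyp20a1 and Ncapd2 kept direction and missed the threshold in all 17 alternatives, and Mlph and Tmem106a kept direction. By cross, no member passed in any alternative, and 5 changed sign near 0 (log2, CAST mother minus BL6 mother). When 1 mouse was left out, values ran from -0.18 to 0.031 in Nbr1 (above 0 without old mouse 4), -0.044 (without old mouse 3) to 0.30 in Tmem106a, -0.031 (without young mouse 2) to 0.16 in Btaf1, -0.28 to 0.044 (without old mouse 4) in Ncapd2 and -0.16 to 0.044 in Mlph, above 0 without old mouse 2 (0.044), old mouse 3 (0.039), young mouse 4 (0.023), young mouse 5 (0.010) or young mouse 6 (0.0025). Without the 3 libraries Mlph was at 0.056 and Tmem106a at -0.0011, and without Scarna10 counts Ncapd2 was at 0.0061. Without Scarna10 counts the age difference of Ncapd2 was -0.25 (edgeR adjusted p = 0.310).

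Leaving out 1 mouse, the number of stepped genes ran from 136 to 148, and the largest gap from 15.3 to 15.5 points in Nbr1, 16.9 to 20.3 in Tmem106a, 14.7 to 15.3 in Ide, 6.86 to 7.39 in Btaf1, 13.9 to 17.0 in Cyp20a1, 7.12 to 7.86 in Ncapd2 and 8.18 to 11.1 in Mlph. Tmem106a was called stepped without young mouse 5. Without Scarna10 counts the Ncapd2 gap was 2.37 points. With at least 50 allelic reads 103 genes were stepped, and with a gap of at least 20 points 111, where none of the members can be.

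No paired analysis was possible because the labels number the mice across both ages and give no number that old and young mice share. Depth limits Tmem106a and Mlph, with as few as 55 and 97 allelic reads.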
